A study of Mus musculus with 6 samples.

Results

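Peaks of the histone marks H3K4me3 and H3K4me1 were examined at 10 cell cycle genes in mouse germinal center (GC) B cells. The members were taken by name: Myc, the D-type cyclin genes Ccnd2 and Ccnd3, the G1/S genes Ccne1 and E2f1, and the mitotic genes Ccna2, Ccnb1, Cdk1, Aurka and Plk1, which are 10 of 21864 protein-coding genes. The 6 Mint-ChIP libraries, 3 per mark, came from spleens of mice labelled WT that had received sheep red blood cells 8 days earlier, with 50000 sorted cells in each. Mint-ChIP is chromatin immunoprecipitation for small cell numbers in which barcoded samples share 1 precipitation. In the study's crosses WT animals carried the Cγ1-cre allele, which is active in GC B cells, and whether the donors of these libraries did was not stated. The methods give an age range for immunized mice in general and not for these donors by name, and nothing says that replicates came from separate animals. P-values therefore measure only the spread between these libraries, which may be technical. The labels call the cells centrocytes, the light zone fraction, while titles and methods speak of GC B cells. The protocol label names an antibody against H3K27Ac, whereas titles, antibody labels and methods name H3K4me1 and H3K4me3. There was no mutant or treated group, so the question put to the data was how Myc and the D-type cyclins differ from the mitotic genes in where the marks lie. In these contrasts the D-type cyclins are Ccnd2 and Ccnd3 only.

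H3K4me3 marks active promoters, and H3K4me1 is typical of enhancers and of the edges of promoters. MYC is a transcription factor that drives cell growth and is induced in the few light zone B cells that receive T cell help. D-type cyclins activate Cdk4 and Cdk6 in G1, E2f1 and cyclin E (Ccne1) then drive entry into S phase, and cyclin A2, cyclin B1 and Cdk1, with the kinases Aurka and Plk1, carry the cell through G2 and mitosis. Cyclin D3 is the D-type cyclin on which expansion of GC B cells chiefly depends. Promoters of mitotic genes are known for CCAAT boxes and for the cell cycle homology region (CHR), through which the DREAM complex holds them silent outside G2 and mitosis.

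The H3K4me3 lists held 41936 to 46707 peaks and the H3K4me1 lists 11922 to 24136, the highest number being that of H3K4me1 replicate 1. Total reads were not used here, and the depth is known only at the summits of the H3K4me1 peaks, which held a median of 6 fragments in each library. A missing H3K4me1 peak therefore means that none was called at this depth. H3K4me3 peaks lay within 5 kb of a start site of the GC B cell markers Bcl6, Mef2b, S1pr2 and Pax5 in 3 of 3 libraries. Of 4 T cell markers Cd3e, Cd4 and Cd8a had none and Cd3d had one, of 3 myeloid markers Lyz2 had none, and the plasma cell markers Prdm1 and Sdc1 and the erythroid gene Klf1 had peaks in 3 of 3 libraries. The part of other cells in the members' peaks was not tested. In such bulk libraries, fewer cells with a mark and less of it per cell cannot be told apart.

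The promoter windows of 4 mitotic genes are shown beside that of Ccnd3, since the peaks compared here lie over them and their letters differ. RefSeq windows (build GRCm38.p6) run from 250 bases before to 50 after a start site, and 7 members had one. Myc, Ccnd2 and Ccna2 had none, so of Myc and the D-type cyclins only Ccnd3 could be compared in its letters. Cdk1 lies at chr10:69352863-69353162 (minus strand), Ccnb1 at chr13:100786437-100786736 (minus strand), Aurka at chr2:172370521-172370820 (minus strand), Plk1 at chr7:122159185-122159484 (plus strand) and the first window of Ccnd3 at chr17:47504801-47505100 (plus strand). Capitals mark the CHR (TTTGAA), the CCAAT box (CCAAT) and the E2F letters (TTTGGCGC, TTTCCCGC, TTTCGCGC or TTTGCCGC), each searched on both strands.
Cdk1: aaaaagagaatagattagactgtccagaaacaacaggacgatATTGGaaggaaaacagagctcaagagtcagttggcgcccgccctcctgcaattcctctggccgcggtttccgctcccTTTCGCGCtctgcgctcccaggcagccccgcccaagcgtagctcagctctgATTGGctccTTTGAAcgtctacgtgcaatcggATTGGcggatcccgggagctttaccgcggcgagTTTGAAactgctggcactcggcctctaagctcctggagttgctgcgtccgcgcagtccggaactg
Ccnb1: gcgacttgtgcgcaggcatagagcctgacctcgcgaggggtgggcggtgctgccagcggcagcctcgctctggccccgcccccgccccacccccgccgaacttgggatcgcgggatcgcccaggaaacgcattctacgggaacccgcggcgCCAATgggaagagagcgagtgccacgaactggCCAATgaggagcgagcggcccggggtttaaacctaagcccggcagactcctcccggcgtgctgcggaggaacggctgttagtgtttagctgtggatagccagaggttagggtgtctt
Aurka: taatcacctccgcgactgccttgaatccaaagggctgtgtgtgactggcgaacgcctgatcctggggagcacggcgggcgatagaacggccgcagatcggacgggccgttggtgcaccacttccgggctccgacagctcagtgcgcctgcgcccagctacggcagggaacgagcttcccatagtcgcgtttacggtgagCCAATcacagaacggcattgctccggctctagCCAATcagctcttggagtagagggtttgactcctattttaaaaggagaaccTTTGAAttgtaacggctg
Plk1: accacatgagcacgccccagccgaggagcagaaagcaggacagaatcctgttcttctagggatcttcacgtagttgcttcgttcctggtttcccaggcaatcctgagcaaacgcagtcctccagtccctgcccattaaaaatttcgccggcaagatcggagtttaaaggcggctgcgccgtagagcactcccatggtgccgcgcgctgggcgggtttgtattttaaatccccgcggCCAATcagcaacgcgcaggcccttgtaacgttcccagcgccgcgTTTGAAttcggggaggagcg
Ccnd3: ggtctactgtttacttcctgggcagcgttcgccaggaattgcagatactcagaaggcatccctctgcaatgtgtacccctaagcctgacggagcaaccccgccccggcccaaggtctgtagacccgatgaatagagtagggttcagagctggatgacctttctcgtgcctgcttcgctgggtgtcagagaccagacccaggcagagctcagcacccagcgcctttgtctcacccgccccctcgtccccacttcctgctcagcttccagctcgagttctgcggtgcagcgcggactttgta

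The RefSeq window of E2f1 holds no coding start site of the annotation used here and lies downstream of both, inside the gene, so it was left out and 6 members remained. A CCAAT box stood in 4 of the 4 mitotic windows and in 0 of the 2 first windows of Ccnd3 and Ccne1, against 38.2% of 21262 coding promoter windows. Cdk1 had 3, which begin 208, 80 and 48 bases before the start site, Ccnb1 and Aurka had 2 each and Plk1 had 1. The CHR letters were in 3 of the 4 mitotic windows, all but Ccnb1, and in 16% of all windows. In Cdk1 they begin 71 and 15 bases before the start site, whereas in Aurka and Plk1 they begin 32 and 30 bases after it. The E2F letters were found in Cdk1 alone among the 6 (2.85% of all windows). The E-box CACGTG (7.84% of all windows) and TATAAA (12.6%) were in none of the 6. The second window of Ccnd3, at chr17:47593217-47593516, had a CCAAT box 108 bases before its start site. A match is a description of letters in these windows, and the motifs share no bases in the lines above. H3K4me3 peaks touched the 4 mitotic windows and the first Ccnd3 window in 3 of 3 libraries each, the second Ccnd3 window in 2 and the Ccne1 window in 1.

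All 10 members had an H3K4me3 peak within 5 kb of a coding start site in each of the 3 libraries, as did 56.2% of protein-coding genes. A peak lay over a start site itself in 3 of 3 libraries in 8 members, against 38.4% of genes. The exceptions were Ccne1, where a single peak in replicate 1 was replaced by peaks on either side of the start site in replicate 2 and by peaks off it in replicate 3, and E2f1, split in the same way in replicate 3. The mitotic genes each had 1 promoter H3K4me3 peak in every library. Myc had 2, 2 and 3, Ccnd2 had 2 in each and Ccnd3 had 4 in each.

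**Figure D1:**
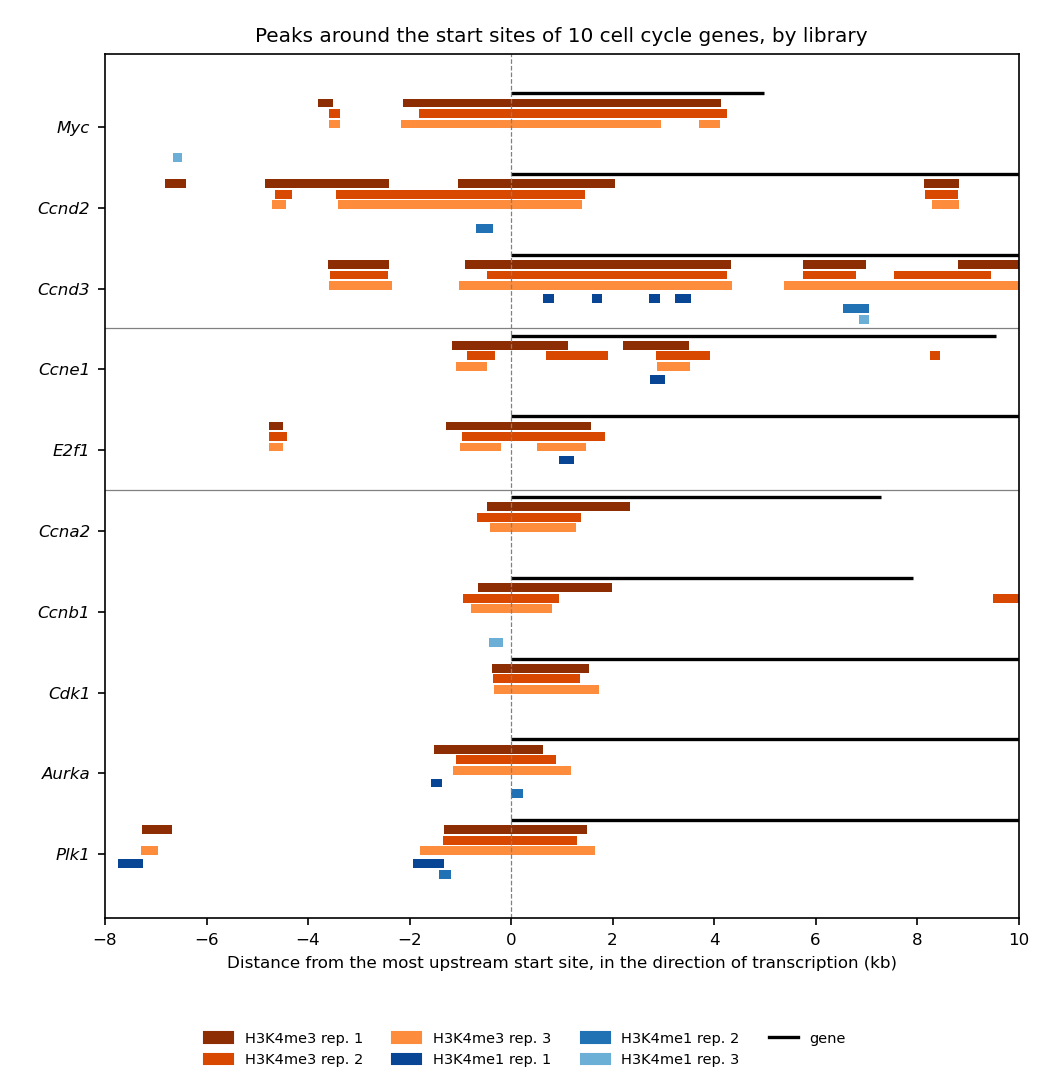
Peaks of each library around the most upstream coding start site (0) of the 10 genes, with distance in kb in the direction of transcription, H3K4me3 in orange, H3K4me1 in blue and the gene as a black line, cut at 10 kb. The H3K4me3 peaks of Myc and Ccnd3 run over 4 kb into the gene in most libraries, and those of the 5 mitotic genes end within 2350 bp of the start.

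Myc, Ccnd2 and Ccnd3 had the widest promoter H3K4me3 peaks of the group. The widest peak of Myc measured 6275, 6075 and 5120 bp in replicates 1, 2 and 3. It reached 1818 to 2167 bp upstream of the first start site and covered 83.2%, 85.4% and 59.2% of this short gene, which lies at chr15:61985391-61990374. That of Ccnd2 measured 3088, 4912 and 4800 bp, with a second promoter peak upstream of it in each library. That of Ccnd3 measured 5248, 4722 and 5384 bp and ran 4247 to 4361 bp into the gene, with at most 1022 bp upstream. Among the 12286 genes with a promoter H3K4me3 peak in 3 of 3 libraries, the mean width put Myc (5823 ± 617 bp, SD, n = 3) at percentile 97.5, Ccnd3 (5118 ± 350 bp) at 96.1 and Ccnd2 (4267 ± 1022 bp) at 93.4.

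The mitotic genes stood nearer the middle of all genes. Ccna2, whose cyclin acts in S phase and G2, had peaks of 2830, 2045 and 1692 bp. Ccnb1, the cyclin partner of Cdk1 at mitotic entry, had 2636, 1907 and 1593 bp, and Cdk1 itself 1919, 1713 and 2065 bp. Aurka, a spindle pole kinase, had 2148, 1976 and 2342 bp. Plk1, a kinase of mitotic entry and exit, had the widest of the 5, with 2814, 2643 and 3448 bp. Their mean widths lay between percentiles 49.9 (Cdk1, 1899 ± 177 bp) and 83.2 (Plk1, 2968 ± 424 bp). Aurka was wider than Cdk1 in each library, while the means of Ccna2 and Ccnb1 differed from each other and from these 2 by less than their own SDs (583 and 535 bp). Among the G1/S genes E2f1 had 2864, 2826 and 970 bp and Ccne1 2274, 1215 and 645 bp, both lowest in replicate 3, where no peak lay over their start sites.

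**Figure D2:**
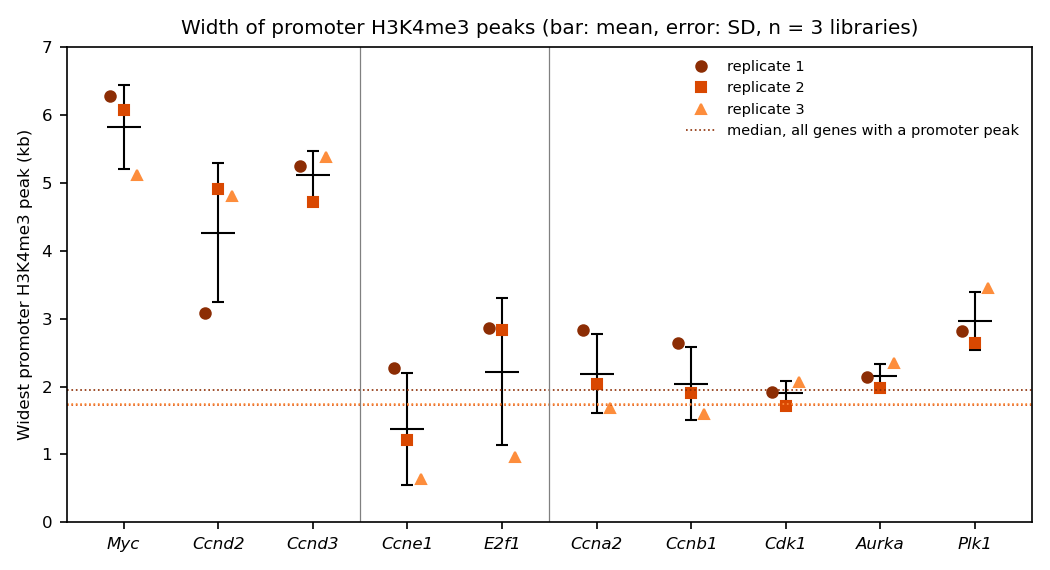
Width in kb of the widest promoter H3K4me3 peak of each gene in 3 libraries (symbols), with the mean and SD, and dotted lines at each library's median over all genes with a promoter peak (1949, 1724 and 1744 bp). Within each library Myc, Ccnd2 and Ccnd3 lie above all 5 mitotic genes, the closest values being 3088 and 2830 bp in replicate 1.

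Within every library, each of Myc, Ccnd2 and Ccnd3 had a wider peak than each of the 5 mitotic genes. The lowest against the highest was 3088 against 2830 bp in replicate 1, 4722 against 2643 bp in replicate 2 and 4800 against 3448 bp in replicate 3. The difference of the log2 widths was 0.94, 1.35 and 1.25, with a mean of 1.18 ± 0.22 (SD, n = 3), or 2.27-fold, and the exact sign-flip test gave p = 0.25, the smallest that 3 libraries allow. Peaks covered 51.6%, 54.6% and 48.6% of the windows within 5 kb of the start sites of these 3 genes and 24.3%, 20.2% and 22% of those of the mitotic genes. That difference was 29.5 ± 4.28 percentage points (SD, n = 3, exact sign-flip p = 0.25). When only the start site bases themselves were counted, the difference turned to −5.56 points, since the second start sites of Ccnd3 were not covered in every library. Ccnd1, the D-type cyclin gene outside the members, went the other way. Its widest promoter H3K4me3 peak had a mean of 1099 ± 107 bp, and no peak lay over a start site in any library. Each mitotic member had a wider mean (1899 to 2968 bp), so the contrast does not hold for all D-type cyclins.

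Width and enrichment did not order the genes alike. The fold enrichment of the peak over the start site, a ratio to background from the authors' peak caller, was 11.8, 8.34 and 8.15 at Plk1 in replicates 1, 2 and 3. At Aurka it was 11, 9.9 and 7.72, and at Ccnb1 9.54, 9.15 and 8.6. At Myc it was 8.68, 8.07 and 7.78. The wide peaks of Ccnd2 (6.28, 5.21 and 5.04) and Ccnd3 (6.87, 5.94 and 5.34) overlapped the range of Cdk1 (7.85, 5.2 and 4.95). The mitotic gene Ccna2 had 4.88, 6.63 and 4.55, the last being the lowest value of any member. Where a peak lay over the start site, E2f1 had 9.21 and 9.73 in replicates 1 and 2, and Ccne1 had 6.76 in replicate 1. These values are averages over each broad peak, and whether width affects them was not tested. In each library the Aurka peak also covered the start site of Cstf1, a gene of messenger RNA 3' end processing that is divergent to it. Of the 4 promoter peaks of Ccnd3, 1 covered that of Taf8 in each library. Merged over libraries, the promoter region of Ccnd2 covered a start site of the antisense gene 9330179D12Rik. The wide region over Myc covered one of Gm37947, which is not annotated as coding.

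Among the members, gene bodies set Ccnd3 apart in both marks. The trait is not particular to it. Outside the members, Cdk6 had 30 body H3K4me1 peaks over the 3 libraries, against 17 at Ccnd3, and body H3K4me3 peaks in 3 of 3 libraries. Ccnd3 spans 94.64 kb at chr17:47505051-47599691, and it had 9, 13 and 9 H3K4me3 peaks and 6, 5 and 6 H3K4me1 peaks in its introns beyond 5 kb of a start site. The H3K4me3 peaks together covered 20% of the gene on average, more than in 98.9% of the 14088 coding genes of at least 10 kb. They merged into 9 regions, 5 of them present in 3 of 3 libraries, the longest being chr17:47526412-47534314 (7903 bp, fold enrichment 3.43 to 5.92). Of the 14 intronic H3K4me1 regions, 3 were called in 2 libraries and 11 in a single library, and 12 overlapped an H3K4me3 peak. Ccnd2 had 1 intronic H3K4me3 peak in each library, at chr6:127142233-127142919 in an intron, and no H3K4me1 peak in its body. Ccne1 had 1 H3K4me3 body peak in replicate 2. The other 7 members had no peak of either mark in the gene body. An H3K4me3 body peak in 3 of 3 libraries was thus present in 2 members, against 19.3% of all genes, and an H3K4me1 body peak in 1, against 6.64%. Body peaks depend on gene length, and Ccnd3 is the longest member, the others being 4.98 to 27.03 kb long.

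**Figure D3:**
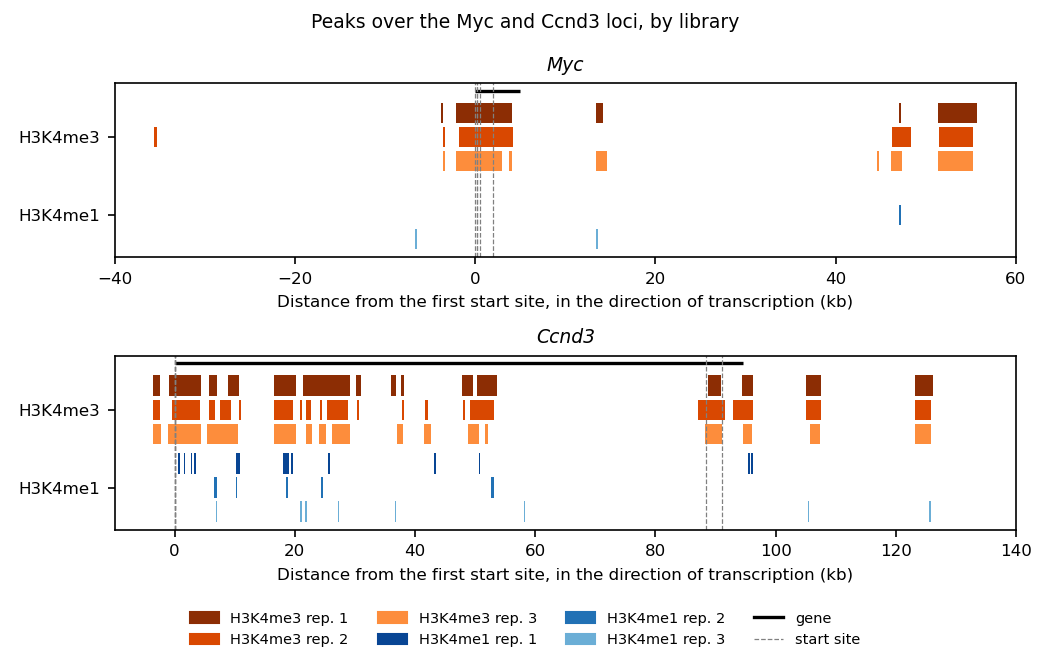
Peaks of each library over the Myc and Ccnd3 loci, with distance in kb from the first coding start site (dashed lines mark all start sites, the black line the gene). Ccnd3 shows 9 to 13 intronic H3K4me3 peaks per library with short H3K4me1 peaks among them, and Myc shows 1 wide peak over the gene and a second one about 50 kb downstream.

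Promoter H3K4me1 peaks did not recur in every library at any member. No member had a promoter H3K4me1 peak in 3 of 3 libraries, against 6.17% of all genes, a share that 10 genes cannot tell apart from 0. In at least 1 library 7 of the 10 had one, against 35.7% of all genes. Myc, Ccna2 and Cdk1 had none. Ccnd3 had 6, 0 and 0 peaks in replicates 1, 2 and 3, and Aurka and Plk1 had 1, 1 and 0. Ccnd2 had a peak in replicate 2, Ccnb1 in replicate 3, and Ccne1 and E2f1 in replicate 1. Without replicate 3, 2 members (Aurka and Plk1) had a peak in every library left. Myc and the D-type cyclins had 2, 0.333 and 0 promoter H3K4me1 peaks per gene and the mitotic genes 0.4, 0.4 and 0.2, a difference of 0.444 ± 1 (SD, n = 3, exact sign-flip p = 1). This value rests on Ccnd3 in replicate 1, the library with the most peaks: it was −0.133 without that replicate and −0.167 without Ccnd3.

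H3K4me1 peaks outside the genes and up to 50 kb away were called in 3 of 3 libraries for Aurka (1, 4 and 2 peaks) and Plk1 (3, 1 and 1), so in 2 members, against 20.4% of genes. In at least 1 library they were found for 8 members, against 54.4% of genes. E2f1 had 3, 2 and 0, Myc 0, 1 and 2, Ccnd2 1, 1 and 0 and Ccnd3 0, 0 and 2, while Ccne1 and Ccnb1 had 1 in a single library. The tallest summit, with 18 fragments, belonged to an E2f1 peak that lies within 5 kb of the start site of Zfp341. Ccna2 and Cdk1 had no H3K4me1 peak of any class in any library. All 57 H3K4me1 peaks of the members merged into 50 regions, of which 44 were called in a single library, 5 in 2 and 1 in 3. The summits held 4 to 18 fragments, with a median of 6. Of the 79 H3K4me3 regions, 49 were called in 3 of 3 libraries and 23 in a single one. Of the 50 H3K4me1 regions, 42 overlapped an H3K4me3 peak. The same shares over all regions of the lists were not computed. These counts, and those for the introns of Ccnd3, therefore describe the members and do not set them apart.

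Of the 6 H3K4me1 regions called in more than 1 library, the one in 3 of 3 libraries and the Ccnd3 region with the tallest summit are shown. The first is at chr2:172346185-172346375, 24121 bp or more from the Aurka start sites, within the gene Fam210b and less than 5 kb from its start site, so its target cannot be told apart. Its summits held 4 to 5 fragments. The second is at chr17:47511901-47512099, in the first part of Ccnd3, and was called in replicates 2 and 3 with 9 and 5 fragments at the summit. Capitals mark the bases shared by the peaks of all libraries that called the region, read on the plus strand of GRCm38, with 25 bases in lower case on either side.
Aurka, outlying: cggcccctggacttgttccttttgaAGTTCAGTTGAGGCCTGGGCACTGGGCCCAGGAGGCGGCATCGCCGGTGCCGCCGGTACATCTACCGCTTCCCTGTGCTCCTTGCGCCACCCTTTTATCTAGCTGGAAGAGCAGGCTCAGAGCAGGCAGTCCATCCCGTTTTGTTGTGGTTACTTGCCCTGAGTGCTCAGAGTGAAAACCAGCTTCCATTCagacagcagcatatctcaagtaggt
Ccnd3, intronic: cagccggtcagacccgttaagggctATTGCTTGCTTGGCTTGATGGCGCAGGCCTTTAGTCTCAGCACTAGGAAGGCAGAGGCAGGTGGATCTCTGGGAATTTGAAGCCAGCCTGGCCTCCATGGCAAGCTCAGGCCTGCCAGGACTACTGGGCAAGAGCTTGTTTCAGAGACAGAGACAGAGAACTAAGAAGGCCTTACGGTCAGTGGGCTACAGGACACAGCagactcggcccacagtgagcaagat

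Of the shared bases, 51.3% in the Ccnd3 region and 0% in the Aurka region are repeat-masked in the RefSeq genome, where reads are harder to place. Over all 57 H3K4me1 peaks of the members the median masked share was 12.2%, and it was 11.1% over the 21422 H3K4me1 peaks on the same chromosomes.

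At least 1 outlying H3K4me3 peak was called for each of the 10 members in every library, a pattern that 60.3% of genes had. Myc had 3, 3 and 4, Ccnd2 2, 2 and 1, and Ccnd3 4, 3 and 3. Ccnb1 had 7, 7 and 6, Aurka 7, 6 and 6, Ccna2 3 in each, and Cdk1 and Plk1 2 in each. Among the G1/S genes, Ccne1 had 3, 4 and 4 and E2f1 6, 5 and 6. Myc and the D-type cyclins thus had fewer per gene than the mitotic genes in each library (3, 2.67 and 2.67 against 4.2, 4 and 3.8), a difference of −1.22 ± 0.10 (SD, n = 3, exact sign-flip p = 0.25, the smallest possible). Ccnb1 and Aurka had the most of the mitotic genes, and Cdk1 and Plk1 had fewer than Myc. The difference was −0.422 when peaks within 5 kb of another coding gene's start site were left out. It was −0.0222 at a −log10 q-value of at least 5 and also −0.0222 when peaks up to 100 kb were counted, and it turned to 0.533 with the 10000 best peaks of each library. Other coding genes within 50 kb number 0 for Myc and Ccne1, 1 for Ccnd2 and Cdk1, 3 for Ccna2, Ccnb1, Aurka and Plk1, 4 for Ccnd3 and 6 for E2f1.

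Of the 27 outlying H3K4me3 regions in 3 of 3 libraries, 16 lay within 5 kb of a start site of another coding gene, a share not computed for all genes. At Ccnb1 these were the promoters of Mrps36, Cenph (a kinetochore protein) and Slc30a5, at Plk1 that of Dctn5 and Palb2, and at Ccna2 those of Exosc9 and Bbs7. At Myc no coding gene shared the window. Its strongest outlying region, chr15:62036693-62041088 (4396 bp, fold enrichment 8.31 to 9.40), began 49271 bp from the nearest Myc start site and covered the start site of the long noncoding RNA gene Pvt1, a neighbour often amplified with MYC in cancer. Without coding neighbours in reach, Ccne1 had 3 outlying regions in 3 of 3 libraries, 12402 to 20171 bp from its start site, of which the longest was chr7:38084343-38087363 (3021 bp) and covered no annotated start site. Cdk1 had 1 in 3 of 3 libraries, 31341 bp away.

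**Figure D4:**
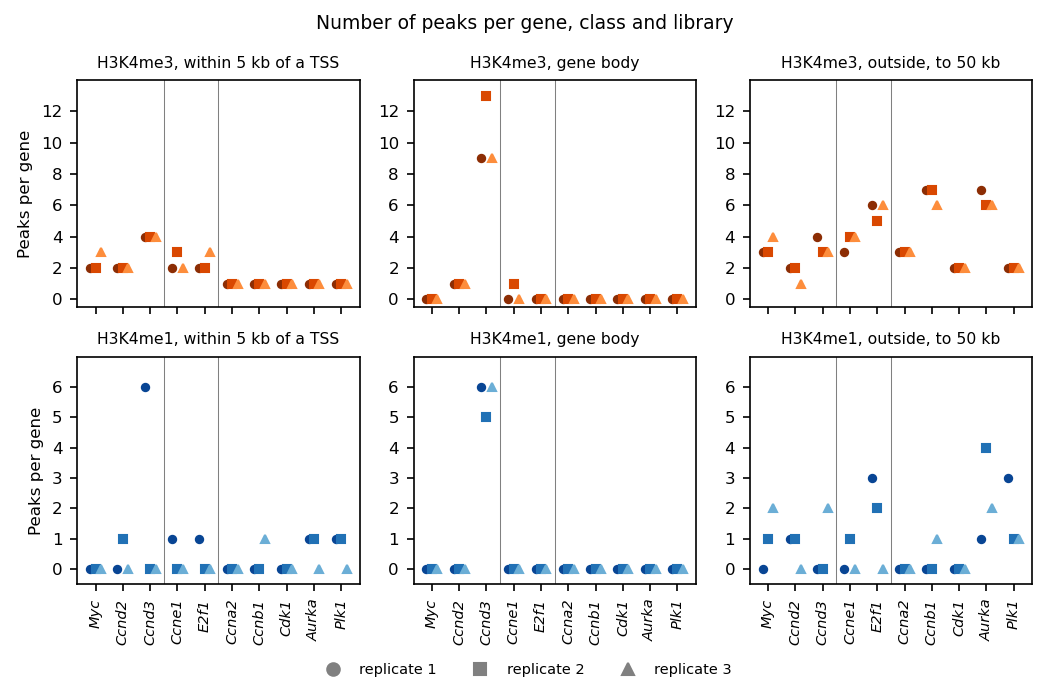
Number of peaks per gene in each library (symbols), for H3K4me3 (top) and H3K4me1 (bottom), within 5 kb of a start site, in the gene body, and outside the gene to 50 kb. Ccnd3 stands apart in the gene body in both marks (9 to 13 and 5 to 6 peaks), and no mitotic gene has a body peak.

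The outlying contrast was also set between the marks. For H3K4me1 Myc and the D-type cyclins had 0.333, 0.667 and 1.33 outlying peaks per gene and the mitotic genes 0.8, 1 and 0.8, a difference of −0.0889 ± 0.543 (SD, n = 3, exact sign-flip p = 1), which was 0.1 without replicate 1 and 0.0333 without replicate 2. The H3K4me1 difference exceeded the H3K4me3 difference by 1.13 (exact permutation p = 0.1 over 6 libraries, the smallest possible). It was 0.133 at a −log10 q-value of at least 5 and turned to −0.4 with the 10000 best peaks, to −0.289 with peaks up to 100 kb and to −0.756 with gene-body peaks added. The marks were called in different modes, which cannot be told apart from the marks here. They also differ in level, with 2.67 to 4.2 outlying peaks per gene in these groups for H3K4me3 and 0.333 to 1.33 for H3K4me1. The difference between marks was not scaled for this.

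Most genes of the same pathways carried promoter H3K4me3. Of 30 further mitosis genes, 30 had a promoter H3K4me3 peak in 3 of 3 libraries, and so did 23 of 24 genes of G1/S and replication, 14 of 15 G1 kinases, pocket proteins and inhibitors, and 12 of 12 partners and relatives of MYC, against 56.2% of all coding genes. The exceptions, with no peak in any library, were Ccna1, a cyclin of the male germ line, and Cdkn1c, an imprinted Cdk inhibitor. The median of the mean widths was 2364 bp for mitosis genes, 2431 bp for G1/S and replication, 2307 bp for G1 kinases and inhibitors and 2007 bp for the MYC network, against 1901 bp over all 12286 genes. Mean peaks of at least 4000 bp, a value chosen after the widths were seen, were found in 3 of the 10 members, in 3, 4, 3 and 3 genes of the 4 lists, and in 7.94% of the 12286 genes.

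The widest mitosis genes were Wee1, a kinase that restrains Cdk1 (4268 bp), the phosphatase gene Cdc25b that opposes it (4170 bp) and Aurkb (4074 bp). Wide peaks among G1/S genes belonged to E2f2, with 5903, 10722 and 5939 bp, and to Tk1 (4882 bp), an enzyme of nucleotide synthesis. In the G1 list they belonged to the Cdk inhibitor gene Cdkn2d (5012 bp), to Cdk6 (4657 bp), a partner of D-type cyclins, and to Rbl1 (4606 bp), a pocket protein. In the MYC network the MAX partners Mnt, with 7400, 7043 and 6099 bp, and Mxi1 (4012 bp), and Mlxip (5941 bp) were the widest. Mnt encodes a repressor that competes with MYC for MAX. Its peak was wider than that of Myc (6275, 6075 and 5120 bp) within each library, with means of 6847 and 5823 bp, though the ranges over libraries overlapped.

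Outlying H3K4me1 peaks were most numerous at Pttg1 (7, 4 and 4 in replicates 1, 2 and 3), Aurkb (5, 3 and 6) and Incenp (6, 5 and 1) among mitosis genes. E2f2 had 4, 6 and 2, Tk1 7, 3 and 2 and Pcna 6, 1 and 4. In the G1 list E2f4 had 5, 1 and 2, Rb1 3, 1 and 3 and Cdk4 2 in each, and in the MYC network Mlx had 5, 5 and 2, Mxd4 5, 2 and 3 and Mycl 2, 4 and 2. Such peaks were present in 3 of 3 libraries for 9 of 30, 12 of 24, 6 of 15 and 3 of 12 genes of the 4 lists, against 20.4% of all coding genes. Promoter H3K4me1 in 3 of 3 libraries was found for 3, 0, 2 and 5 genes, the last number being of the 12 MYC network genes, against 6.17% of all coding genes.

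Genes most like Myc in their peak counts were named by the Euclidean distance over log2(peaks + 1) in 3 classes and 6 libraries, leaving out genes within 100 kb. Rbbp9 was nearest (distance 0.668), with 2, 2 and 3 promoter and 3 outlying H3K4me3 peaks per library, no promoter H3K4me1 peak and no body peak. Cul7 and Mrpl2 followed at 0.829 each and had identical counts in every class and library, and they lie next to each other on chromosome 17. Likeness in counts leaves out width.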

How the data were processed

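Peak lists of 6 Mint-ChIP libraries were used, 3 for H3K4me1 and 3 for H3K4me3, grouped by the mark in their titles. Each library has its own deposited list, so the authors called peaks without pooling replicates, in a layout with a summit for H3K4me1 and in a broad layout for H3K4me3. The submitters' processing notes name the build mm10 and the tools BWA, Picard, HOMER and Genrich without a role, and the peak caller's settings, its control and the read totals are not given in the sources used here. In the deposited lists, fold enrichment is a linear ratio of signal to local background, given beside its −log10 p-value and −log10 q-value, and these are averages over each broad peak. The deposited score, which restates the q-value as a whole number, and the deposited summit offset of the H3K4me1 lists were used for no comparison, apart from the summit's place in the fragment estimate below.

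Coding genes (21864) and their 41451 start sites came from the GENCODE vM21 basic annotation of GRCm38. A peak within 5 kb of a gene's own coding start site was classed as promoter, one touching the rest of the gene as gene body, and one outside the gene and within 50 kb as outlying. The classification was tested on simulated data with known answers. Each contrast of genes was formed within a library and tested over 3 libraries with a two-sided exact sign-flip test, or between marks over 6 libraries with a two-sided exact permutation test. Their smallest p-values are 0.25 and 0.1, so neither can pass 0.05. Values are mean ± SD over libraries. H3K4me1 summit fragments were solved from the fold and p-value of each peak with a tolerance of 0.0005. Promoter windows and their motifs came from RefSeq (GRCm38.p6). The named genes were all 10 members and, of each pathway list, the genes with no promoter H3K4me3 peak, the 3 with the widest mean promoter H3K4me3 peak and the 3 with the most outlying H3K4me1 peaks. Some genes that these rules and the marker lists name are not reported here. The members and lists were chosen with earlier results of these data known. Alternatives were stricter peaks, other distances, merged peaks, other gene sets and each library left out. Python 3.11.15, pandas 2.3.3, numpy 2.4.6 and matplotlib 3.10.9 were used.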

Additional observations from a re-analysis of the deposited data

How the results depend on the processing

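Of 110 recomputed values, 89 kept their direction (a count, its size within 1.5 times), though their size could change, 2 fell to 0, 17 changed direction and 2 counts moved by more than 1.5 times. The wider H3K4me3 peaks of Myc, Ccnd2 and Ccnd3 kept their direction under every alternative tried. The log2 difference was 0.51 when Ccne1 and E2f1 were added to them, 1.17 at a −log10 q-value of at least 5 and 1.01 with the 10000 best peaks. The last 2 lacked 4 and 6 widths, where a gene had no promoter peak left in a library. A promoter distance of 1 kb, peaks over the start site and 1 start site per gene left the same widest peaks and the same value, 1.18. These alternatives are among the 89 and put the width result to no test. The cover difference was 7.27 points with a 1 kb window, 11.8 with the 10000 best peaks and 19.4 at the stricter q-value or with Ccne1 and E2f1 added. Without 1 replicate at a time the log2 width difference was 1.09 to 1.30, the cover difference 27.0 to 30.9 points, the outlying H3K4me3 difference −1.27 to −1.17, the promoter H3K4me1 difference −0.133 to 0.767, the outlying H3K4me1 difference −0.4 to 0.1, and the difference between marks 0.867 to 1.33. The count of members with promoter H3K4me3 stayed at 10 and that with promoter H3K4me1 was 0 to 2. At a −log10 q-value of at least 5 the promoter and outlying H3K4me1 differences were −0.0667 and 0.111. With the 10000 best peaks of each library they were −0.222 and 0.133, the outlying H3K4me3 difference was 0.533, the difference between marks −0.4, and 6 members kept promoter H3K4me3. With peaks over the start site itself the cover difference was −5.56 points and the promoter H3K4me1 difference −0.0667. With gene-body peaks counted as outlying, the H3K4me1 and H3K4me3 differences were 1.8 and 2.56 and that between marks −0.756, since Ccnd3 holds most body peaks. To 100 kb the difference between marks was −0.289. Without peaks near another coding gene the outlying H3K4me1 difference was 0.0667. Without Ccnd3 the promoter H3K4me1 difference was −0.167. It was 0 with peaks within 1 kb merged, as was the outlying H3K4me1 difference with Ccne1 and E2f1 added to Myc and the D-type cyclins. Beyond these the cause was not tested. With a replicate block the difference between marks was 1.13 (exact sign-flip p = 0.25). The marks share replicate numbers only, and the block changed no call, since none could be made. Leaving out peaks near any annotated gene, an alternative chosen after seeing the data, gave −0.778 for outlying H3K4me3 and −0.0444 for outlying H3K4me1.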
